A study of Homo sapiens with 7 samples.

Results

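The tripartite motif (TRIM) genes encode one of the larger families of RING-type ubiquitin ligases. Members were taken as every row of the deposited count table whose symbol is TRIM followed by a number and at most one letter, leaving out TRIM28, which gave 74 of 59251 rows. All 74 matched a RefSeq gene of GRCh38.p14, and RefSeq types 2 of them, TRIM16L and TRIM80P, as pseudogenes. A TRIM protein typically carries a RING domain that recruits a ubiquitin-charged E2 enzyme, 1 or 2 B-box domains and a coiled coil, followed by a C-terminal part that binds the target. Many members restrict viruses or tune the cytosolic nucleic acid sensors, and interferon induces several of them. Others repress transcription in the nucleus, bind RNA through NHL repeats, sit on microtubules or the sarcomere, or belong to multicopy clusters expressed in testis and at embryonic genome activation.

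The cells were H9, an established human embryonic stem cell line, kept in RSeT, a medium for the naive pluripotent state. They were transfected with guide RNA plasmids and fall into a group labelled DJL1 (n = 3 libraries) and a group labelled CTRL (n = 4 libraries), and the labels describe neither set of guides. By its title the study asks how LINE1 sequences next to the rDNA arrays bear on the nucleolus. Cells of both groups were in 10 nM DZNep, an inhibitor of histone methylation, and 5 nM TSA, a histone deacetylase inhibitor, with the CEPT survival cocktail for the initial 16 h, and poly(A) RNA was read 48 h after transfection. All values are thus from cells under these inhibitors. The labels mention harvest for sorting in one place and direct RNA extraction in another, and give no gate and no effector protein for the guides. Nothing says that replicates were separate cultures, so the p-values reflect library-to-library spread that could be technical.

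Total counts were 34634882 to 37795742 in DJL1 libraries and 62277489 to 76691997 in CTRL libraries, so a member with few reads was read less deeply in DJL1. The spread between libraries (edgeR's biological coefficient of variation) was 13.8% in DJL1 and 3.45% in CTRL. No batch is named, so a difference in preparation between the groups cannot be told apart from the treatment. In these bulk samples a shift in the share of cells that express a gene and a shift in RNA per cell cannot be told apart either. POU5F1, which encodes the pluripotency factor OCT4, had 5354 ± 269 CPM in DJL1 and 5324 ± 73.1 CPM in CTRL (SD), where CPM is counts per 1000000 counts of the scaled library. Of 6 pluripotent cell markers the other 5 were lower in DJL1 by edgeR's test, among them DPPA4 (log2 fold change -0.66), NANOG (-0.50), SALL4 (-0.41) and SOX2 (-0.39). Of all tested genes 25.1% were lower, and of those over 100 CPM 52.1% were. Of 8 tested fibroblast and feeder markers 7 were higher, where 27.0% of all tested genes were. The 7 included FBN1 (1.29), COL1A1 (1.01), FN1 (0.65) and COL1A2 (0.39), while POSTN (-0.33) was not called. The fibroblast and feeder markers summed to 1071 to 1176 CPM in DJL1 and 673 to 700.1 CPM in CTRL, with LUM and DCN near 0. Leukocyte markers summed to 44.6 to 52.0 CPM in DJL1 and 41.1 to 46.0 CPM in CTRL, most of it from HLA-DRA. Of 6 tested leukocyte markers SPI1 (log2 fold change 1.10), CD14 (0.75) and HLA-DRA (0.30) were higher and CD68 (-0.78) was lower, while PTPRC, the pan-leukocyte marker, was not tested, at 0.189 CPM or less in all 7 libraries. The part of other cell types in the results below was not tested.

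The sequences upstream of the members were searched for 2 motifs, because interferon-induced genes and the multicopy embryonic genes are each known for one. RefSeq promoter windows (GRCh38.p14) were at hand for 58 members, 77 windows in all, and the 250 bases before each listed start were read, since a gene can have several. The letters GAAA, any 2 bases and GAAA on either strand (TTTC, 2 bases and TTTC when read from the other strand), the core of the interferon-stimulated response element bound by the STAT and IRF factors, stood in 9 of the 77 member windows (11.7%), each of another member, and in 3.02% of all 35116 windows. They were in 5 of the 12 antiviral and innate immune members that had a window, which are shown 5′ to 3′ on the strand of the gene with the matched letters in capitals.
TRIM5: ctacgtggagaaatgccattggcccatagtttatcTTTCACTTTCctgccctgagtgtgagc
TRIM69: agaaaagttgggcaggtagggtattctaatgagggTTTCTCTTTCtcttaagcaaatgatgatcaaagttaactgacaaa
TRIM26: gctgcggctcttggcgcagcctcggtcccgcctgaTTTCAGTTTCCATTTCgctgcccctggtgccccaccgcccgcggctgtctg
TRIM34: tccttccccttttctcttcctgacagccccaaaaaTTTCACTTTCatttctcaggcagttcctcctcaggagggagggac
TRIM14: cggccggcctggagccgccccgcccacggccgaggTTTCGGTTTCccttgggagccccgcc
The TRIM5 stretch lies at chr11:5685075-5685136 on the minus strand, that of TRIM69 at chr15:44736431-44736510 on the plus strand and that of TRIM26 at chr6:30213550-30213635 on the minus strand. The stretches of TRIM34 and TRIM14 lie at chr11:5624876-5624955 on the plus strand and at chr9:98119223-98119283 on the minus strand. The match began 27 bases before the gene start in TRIM5, 62 in TRIM69 and 26 in TRIM14. In TRIM34 it began 90 bases before one of 2 listed starts, which lies inside the gene's span (5619944 to 5644398). TRIM26 held 2 overlapping matches, the farther one 194 bases before the start. The other members with these letters were TRIM2, TRIM16, TRIM44 and TRIM64C.

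The letters TAA, any 3 bases and AATCA on either strand, the core of the element bound by the embryonic factor DUX4, stood in 4 of the 77 member windows (5.19%) and in 0.817% of all windows. The matched letters are the same in these 4 windows and the flanks are similar. The 4 may thus not be independent matches, which limits the comparison with all windows. All 4 lie on chromosome 11, TRIM51G and TRIM49B 44937 bases apart, and are shown in the same way so that their shared letters can be seen.
TRIM49B: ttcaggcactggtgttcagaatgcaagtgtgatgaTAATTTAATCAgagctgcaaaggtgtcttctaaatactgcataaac
TRIM48: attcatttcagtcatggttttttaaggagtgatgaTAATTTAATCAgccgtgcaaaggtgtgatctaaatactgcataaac
TRIM51: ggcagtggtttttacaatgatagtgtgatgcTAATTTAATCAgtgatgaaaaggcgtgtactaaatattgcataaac
TRIM51G: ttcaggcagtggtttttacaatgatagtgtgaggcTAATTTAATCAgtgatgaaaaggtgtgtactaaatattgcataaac
They lie at chr11:49028639-49028719 (TRIM49B), chr11:55261974-55262054 (TRIM48) and chr11:55883047-55883123 (TRIM51), all on the plus strand, and at chr11:48983997-48984077 (TRIM51G) on the minus strand. A match of letters is a description of the sequence and not a bound site. DUX4 itself had 0.126 ± 0.0519 CPM in DJL1 and 0.177 ± 0.0420 CPM in CTRL (SD) and was not called (log2 fold change -0.49, adjusted p = 0.512).

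The test of DJL1 against CTRL was the quasi-likelihood F test of edgeR over 26062 genes, with Benjamini-Hochberg adjustment over all of them and a threshold of 0.05. Of the 74 members 65 had enough counts to be tested, and 29 were higher in DJL1, 18 were lower and 18 were not called. Over all tested genes 27.0% were higher and 25.1% lower, together 52.0%, so many calls of a large family are given by the background alone. The members called made up 72.3% of those tested, and over the 65 tested members the log2 fold change had a median of 0.17, against 0.01 over all tested genes. By at least 2-fold, 15 members were higher and 1, TRIM54, lower, against 10.7% and 2.20% of all tested genes. The 15 include TRIM40, TRIM49B and TRIM49C, which needed DJL1 libraries to pass the filter on low counts. They also include near-identical copies among the TRIM43 and TRIM49 genes, whose reads may be shared. This count is thus no evidence of a direction. In 27 members every DJL1 value lay above every CTRL value and in 19 below, against 27.4% and 26.2% of all tested genes, 53.6% in either direction.

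Direction went with the level of the member. Of the 4 members over 100 CPM 1 was higher (TRIM26) and 3 were lower (TRIM24, TRIM27 and TRIM71), against 23.2% and 52.1% of all genes at that level. Of 33 members with a mean of 10 to 100 CPM over the libraries, 10 were higher (30.3%) and 14 lower (42.4%), near the 27.5% and 41.4% of all genes at that level. Of 18 members at 1 to 10 CPM 10 were higher (55.6%) and 1 lower, against 35.5% and 18.0% of all such genes. Of 10 members under 1 CPM 8 were higher (80.0%) and TRIM50 and TRIM80P were not called, where 19.6% of all such genes were higher and 5.25% lower. Of these low members TRIM40, TRIM49B, TRIM49C and TRIM80P would not have passed the filter on low counts with their CTRL libraries alone. Their counts as a group are thus no evidence of a direction. All members together took 2638 to 2837 CPM of a DJL1 library and 2980 to 3000.2 CPM of a CTRL library.

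**Figure D1:**
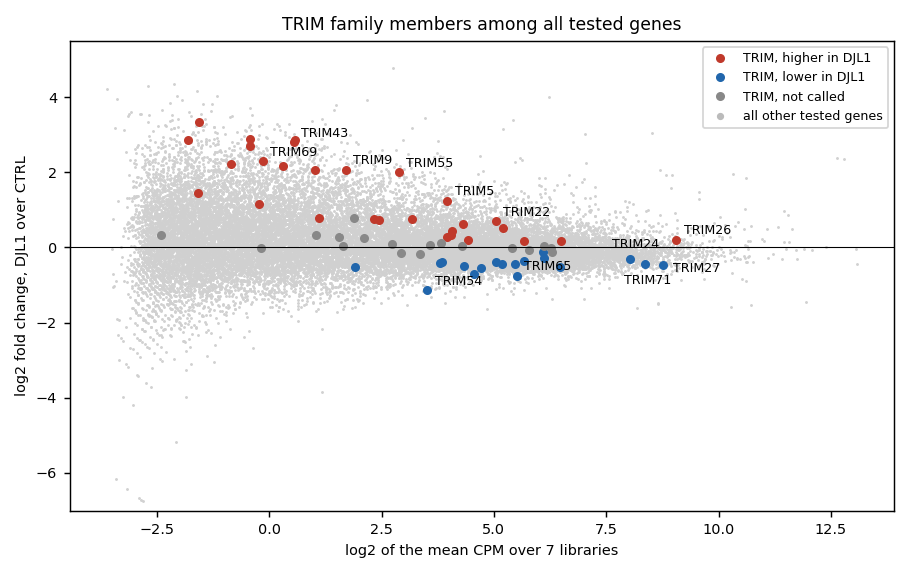
Each point is a tested gene, with the log2 of its mean CPM over 7 libraries on the horizontal axis and its log2 fold change, DJL1 over CTRL, on the vertical axis; the 65 tested TRIM members are coloured by their call. The 15 members higher by at least 2-fold have a mean of 15.6 CPM (TRIM5) or less, and the abundant TRIM24, TRIM27 and TRIM71 lie below 0.

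The 14 antiviral and innate immune members held calls in both directions, as all tested genes did. Of 13 tested, 5 were higher in DJL1, 4 were lower and 4 were not called, with a median log2 fold change of 0.11. Over all tested genes 27.0% were higher and 25.1% lower. TRIM5, which binds the capsid of incoming retroviruses, had 23.1, 22.8 and 24.1 CPM in the DJL1 libraries, against 9.85, 8.89, 10.1 and 10.7 CPM in the CTRL libraries. All DJL1 libraries lay above all CTRL libraries and the groups were far apart. The log2 fold change was 1.24 ± 0.07 (SE, adjusted p = 3.4e-09), the smallest adjusted p of the family. TRIM69, known for restricting vesicular stomatitis virus, had 2.09, 1.71 and 1.19 CPM in DJL1, against 0.353, 0.434, 0.225 and 0.333 CPM in CTRL (log2 fold change 2.29 ± 0.30, adjusted p = 1.3e-05). Its counts were low, 44 to 80 reads in DJL1 and 14 to 33 reads in CTRL, yet the groups did not overlap. TRIM22, an interferon-induced antiviral ligase next to TRIM5 on chromosome 11, had 44.4, 38.1 and 44.8 CPM in DJL1, against 26.0, 25.8, 25.2 and 27.2 CPM in CTRL (log2 fold change 0.71 ± 0.06, adjusted p = 1.5e-07). TRIM4, reported to ubiquitinate the RNA sensor RIG-I, had a log2 fold change of 0.77 ± 0.16. TRIM26, a ligase encoded in the major histocompatibility region that acts on the factor IRF3, had 562, 587 and 587 CPM in DJL1, against 486, 493, 511 and 512 CPM in CTRL. This is a small rise of 0.21 ± 0.04 on the log2 scale (adjusted p = 0.00022), with no overlap between the groups. With 132 CPM per kb of exon in DJL1 and 114 in CTRL it had the highest level per length of the 74 members.

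Other members of this group were lower or did not pass the test. TRIM65, the ligase for the double-stranded RNA sensor MDA5, had 29.8, 32.2 and 36.6 CPM in DJL1, against 54.7, 55.6, 55.7 and 55.0 CPM in CTRL. Every DJL1 library lay below every CTRL library, and on the log2 scale it fell by 0.75 ± 0.06 (adjusted p = 6.5e-08). TRIM38, a regulator of Toll-like receptor and cGAS signalling, TRIM6, which makes unanchored ubiquitin chains for the kinase IKKε, and TRIM14, an adaptor at the mitochondrial protein MAVS, were lower by log2 fold changes of -0.50, -0.39 and -0.36. TRIM14 carries the interferon element letters shown above, as the higher TRIM5, TRIM69 and TRIM26 do. TRIM25, which ubiquitinates RIG-I, had 73.1, 68.2 and 82.3 CPM in DJL1, against 81.8, 81.0, 80.1 and 78.5 CPM in CTRL, with overlapping groups (log2 fold change -0.11 ± 0.05, adjusted p = 0.107). It passed the test without DJL1 replicate 3 (log2 fold change -0.20, adjusted p = 0.0017) and with no filter on low counts (-0.14, adjusted p = 0.017). TRIM21, the cytosolic antibody receptor, had 13.5, 15.6 and 14.9 CPM in DJL1, against 13.2, 13.8, 13.3 and 14.4 CPM in CTRL, again overlapping (log2 fold change 0.11 ± 0.07, adjusted p = 0.256). TRIM56 (0.03), a regulator of STING signalling, and TRIM31 (0.33), a ligase for MAVS, were not called.

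**Figure D2:**
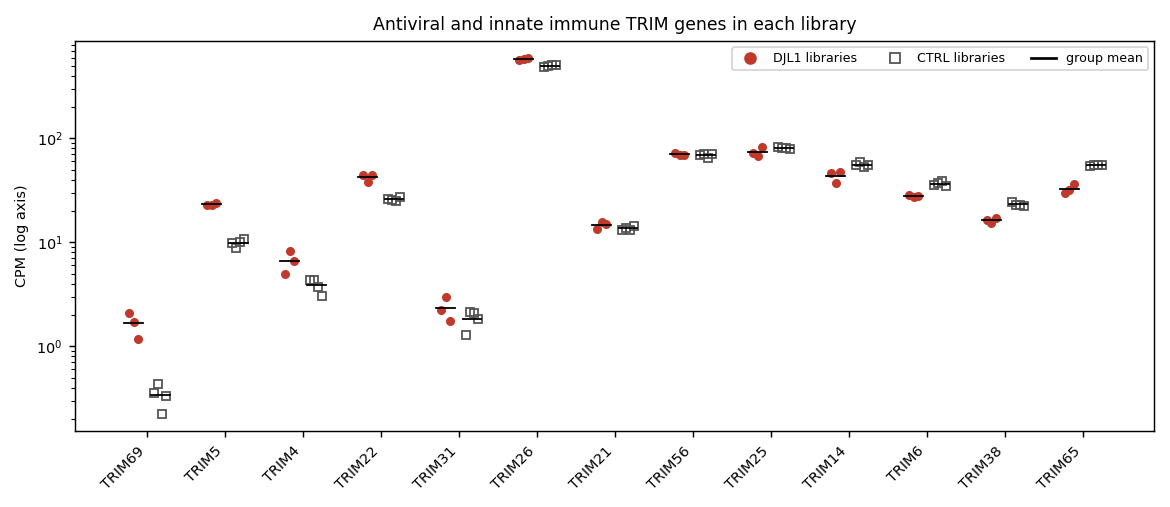
CPM on a log axis for the 13 tested antiviral and innate immune members, with DJL1 libraries as filled circles, CTRL libraries as open squares and a bar at each group mean. The groups stand apart for TRIM69, TRIM5, TRIM4, TRIM22 and TRIM26 (DJL1 higher) and for TRIM14, TRIM6, TRIM38 and TRIM65 (DJL1 lower).

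TRIM34 was not tested, with 0 reads in each DJL1 library and 0, 3, 5 and 3 reads in the CTRL libraries. A count of 0 allows up to 0.0794 to 0.0866 CPM in a DJL1 library (3 counts per library, counting error only), so a difference was not detectable at this depth. In GENCODE 29, 83.0% of its exon bases are shared with the readthrough gene TRIM6-TRIM34, which had 0 reads in all libraries, and how such shared reads were counted is not given in the sources used here. The same holds in part for TRIM6 (29.3%) and, with TRIM39-RPP21, for TRIM39 (29.5%), so levels of these genes may be understated in both groups.

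The partners of this group moved in both directions. Of 14 tested sensors and adaptors on which TRIM ligases act, 6 were higher and 6 lower, against 27.0% and 25.1% of all tested genes. IFIH1, the gene of MDA5, had 31.3 ± 4.06 CPM in DJL1 and 2.52 ± 0.178 CPM in CTRL (SD, log2 fold change 3.64), and DDX58, the gene of RIG-I, 32.6 ± 7.87 CPM in DJL1 and 11.3 ± 0.783 CPM in CTRL (1.53). MAVS, the adaptor below both, was lower (-0.48), and NFKB1 was higher (0.67). Of the ligases named above for these 2 sensors, TRIM65 was lower (-0.75), TRIM25 was not called (-0.11) and TRIM4 was higher (0.77). Of 12 genes for E1 and E2 enzymes that serve TRIM ligases 6 were lower and 1 was higher. UBE2N, which builds K63-linked chains, was at -0.56, UBE2K at -0.38, UBE2D2 at -0.34 and the E1 gene UBA1 at -0.24. The higher one was UBE2L6 (0.26), an E2 enzyme of the interferon-induced modifier ISG15. Most of these enzyme genes had over 10 CPM. Of all genes at 10 to 100 CPM 41.4% were lower, and of those over 100 CPM 52.1% were, so the lower calls are near the background.

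Of the 4 nuclear corepressor members 2 were lower and 2 were not called, where 25.1% of all tested genes were lower. The 2 lower ones, TRIM27 and TRIM24, had over 100 CPM, a level at which 52.1% of all tested genes were lower. TRIM27, a nuclear corepressor, had 329, 342 and 388 CPM in DJL1, against 495, 507, 474 and 486 CPM in CTRL (log2 fold change -0.47 ± 0.05, adjusted p = 1.5e-06). TRIM24, a bromodomain cofactor that reads histone marks and limits p53, had 247, 193 and 255 CPM in DJL1, against 289, 285, 291 and 283 CPM in CTRL. All DJL1 values lay below the CTRL range, with replicate 2 lowest (log2 fold change -0.31 ± 0.07, adjusted p = 0.0023, and -0.21 without that library). TRIM33, a related bromodomain protein that acts with SMAD factors, had 82.1, 73.4 and 76.8 CPM in DJL1, against 77.3, 75.9, 79.9 and 78.4 CPM in CTRL. The groups overlapped and the log2 fold change was -0.01 ± 0.05 (adjusted p = 0.901). TRIM66, the testis-enriched relative, had -0.15 ± 0.11 and was not called. For comparison TRIM28, the KRAB zinc finger corepressor of the same subfamily, had 985 ± 73.6 CPM in DJL1 and 1125 ± 14.8 CPM in CTRL (log2 fold change -0.19).

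Among the members with NHL repeats, 1 of 4 was lower and 2 were higher, against 25.1% and 27.0% of all tested genes. TRIM71, the let-7 target LIN41 that binds RNA in stem cells and early embryos, had 292, 250 and 284 CPM in DJL1, against 373, 375, 371 and 376 CPM in CTRL. The CTRL libraries were nearly equal and all DJL1 libraries lay below them (log2 fold change -0.44 ± 0.05, adjusted p = 1.8e-06). Per kb of exon TRIM71 stood at 31.7 CPM in DJL1 and 43.0 CPM in CTRL, rank 3 of the 74 members behind TRIM26 and TRIM27 and ahead of TRIM24 and TRIM39. TRIM39, a cell cycle regulator of the major histocompatibility region, had 68.0, 73.4 and 71.6 CPM in DJL1, against 111, 100.3, 94.6 and 105 CPM in CTRL. It was thus lower in all DJL1 libraries (log2 fold change -0.53 ± 0.05, adjusted p = 6.7e-07). TRIM3 and TRIM32, ligases studied in neurons and muscle, were higher by 0.32 and 0.20, although TRIM32 missed the threshold with no filter on low counts (adjusted p = 0.053). TRIM2 had -0.07 and was not called.

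Members that bind microtubules and are known from neurons changed in both directions. Of these 4, 3 were higher and 1 was lower, against 27.0% and 25.1% of all tested genes. TRIM9, a ligase of axon branching, had 5.64, 6.88 and 4.86 CPM in DJL1, against 1.70, 1.04, 1.11 and 1.67 CPM in CTRL (log2 fold change 2.07 ± 0.19, adjusted p = 3.4e-07). Its relative TRIM67 had 2.32, 2.48 and 1.92 CPM in DJL1, against 0.513, 0.224, 0.563 and 0.697 CPM in CTRL (2.17 ± 0.30, adjusted p = 2e-05). Both were thus higher in DJL1 with no overlap between the groups, and both were low in CTRL, at means of 1.38 and 0.499 CPM. TRIM36, also known from the sperm acrosome, was higher by 0.61 ± 0.07. TRIM46, which bundles microtubules of the axon's initial segment, ran the other way, with 17.3, 16.6 and 17.9 CPM in DJL1, against 27.6, 28.0, 28.9 and 27.3 CPM in CTRL. It fell by 0.69 ± 0.06 on the log2 scale (adjusted p = 1.1e-07).

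Of the 5 muscle-linked members 4 were higher and 1 was lower, against 27.0% and 25.1% of all tested genes. TRIM55, the sarcomere ligase MuRF2 on chromosome 8, had 11.8, 14.1 and 13.0 CPM in DJL1, against 3.50, 2.41, 3.80 and 3.35 CPM in CTRL (log2 fold change 1.99 ± 0.13, adjusted p = 1.1e-08). TRIM54, its relative MuRF3, had 6.92, 8.02 and 5.53 CPM in DJL1, against 15.9, 16.0, 13.9 and 14.1 CPM in CTRL (-1.14 ± 0.11, adjusted p = 5.4e-07). Neither gene's groups overlapped, so these related ligases differed in direction. TRIM63, the atrophy-linked MuRF1, was near the floor with 12 to 23 reads in DJL1 and 5 to 19 reads in CTRL (1.44 ± 0.49, adjusted p = 0.022). It missed the threshold without DJL1 replicate 1, DJL1 replicate 3 or CTRL replicate 3 (adjusted p = 0.065, 0.066 and 0.051) and with the replicate number as a block (0.079). TRIM72, the membrane repair protein MG53, was higher by 0.73 ± 0.10. TRIM7, which binds glycogenin, had 0.861, 2.03 and 0.863 CPM in DJL1, against 0.417, 0.631, 0.740 and 0.454 CPM in CTRL (1.15 ± 0.35, adjusted p = 0.011). Its value rested on DJL1 replicate 2, without which the log2 fold change was 0.61 (adjusted p = 0.146). Beside these, 3 of 6 tested muscle markers were higher, MYOD1 (1.07), CKM (0.80) and DES (0.69), and 1 was lower, ACTA1 (-0.31). Muscle markers summed to 62.7 to 70.7 CPM in DJL1 and 62.6 to 65.3 CPM in CTRL. Most of the sum came from 2 genes that moved in opposite directions. DES had 26.2 CPM in DJL1 and 16.2 CPM in CTRL, and ACTA1 36.7 CPM in DJL1 and 45.4 CPM in CTRL. MYOG was at 0.135 CPM or less in all libraries.

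The multicopy testis and early-embryo members made up 7 of the 15 members that were higher by at least 2-fold. Of the 15 listed members present, 8 had enough counts to be tested, and these 8 were called higher, where 27.0% of all tested genes were. The share was 19.6% of all genes under 1 CPM and 35.5% of those at 1 to 10 CPM. TRIM61, TRIM60, TRIM43 and TRIM43B had a mean in the latter range. TRIM49B and TRIM49C would not have passed the filter with their CTRL libraries alone, so the count by itself does not bear on the direction of the group. TRIM43, a gene of the cleavage-stage embryo, had 2.04, 4.02 and 2.56 CPM in DJL1, against 0.321, 0.329, 0.595 and 0.409 CPM in CTRL (log2 fold change 2.79 ± 0.29, adjusted p = 9.1e-07). Its copy TRIM43B had 2.32, 3.59 and 2.86 CPM in DJL1, against 0.257, 0.237, 0.676 and 0.439 CPM in CTRL (2.87 ± 0.31). The transcripts of both are 99.4% identical over 1668 bases, so the split of reads between them is uncertain. Summed to 1 row, an alternative added after the data were seen, they had 5.79 ± 1.67 CPM in DJL1 and 0.817 ± 0.333 CPM in CTRL (SD, log2 fold change 2.83 ± 0.26, adjusted p = 2.8e-07). TRIM49 had 0.757, 1.94 and 1.65 CPM in DJL1, against 0.177, 0.276, 0.225 and 0.197 CPM in CTRL (2.70 ± 0.37, adjusted p = 1.6e-05). TRIM49C, 99.6% identical to it, had 0.835, 2.05 and 1.54 CPM in DJL1, against 0.160, 0.289, 0.193 and 0.136 CPM in CTRL (2.89 ± 0.38, adjusted p = 1.3e-05). With TRIM49B, the 3 copies summed to 3.48 ± 1.36 CPM in DJL1 and 0.490 ± 0.0930 CPM in CTRL (SD, log2 fold change 2.81 ± 0.27, adjusted p = 4.8e-07). The DJL1 libraries varied more among themselves here, with replicate 2 highest, yet each lay above every CTRL library.

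TRIM61, TRIM60 and TRIM75 lie next to each other on chromosome 4, within 54341 and 12116 bases, and all 3 were higher. TRIM60 had 4.64, 3.97 and 2.08 CPM in DJL1, against 0.850, 0.776, 0.997 and 0.787 CPM in CTRL (log2 fold change 2.06 ± 0.24, adjusted p = 4.1e-06). TRIM75 had 0.939, 1.03 and 1.05 CPM in DJL1, against 0.241, 0.224, 0.290 and 0.106 CPM in CTRL (2.22 ± 0.38, adjusted p = 0.00015). TRIM61, the most abundant of this group, had 11.8 ± 1.08 CPM in DJL1 and 7.01 ± 0.394 CPM in CTRL (SD, 0.75 ± 0.09), and 33.2% of its exon bases overlap a processed pseudogene. Per kb of exon TRIM61 stood at 7.46 CPM in DJL1 and 4.43 CPM in CTRL, while the others of the group reached at most 1.75 CPM per kb in DJL1.

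**Figure D3:**
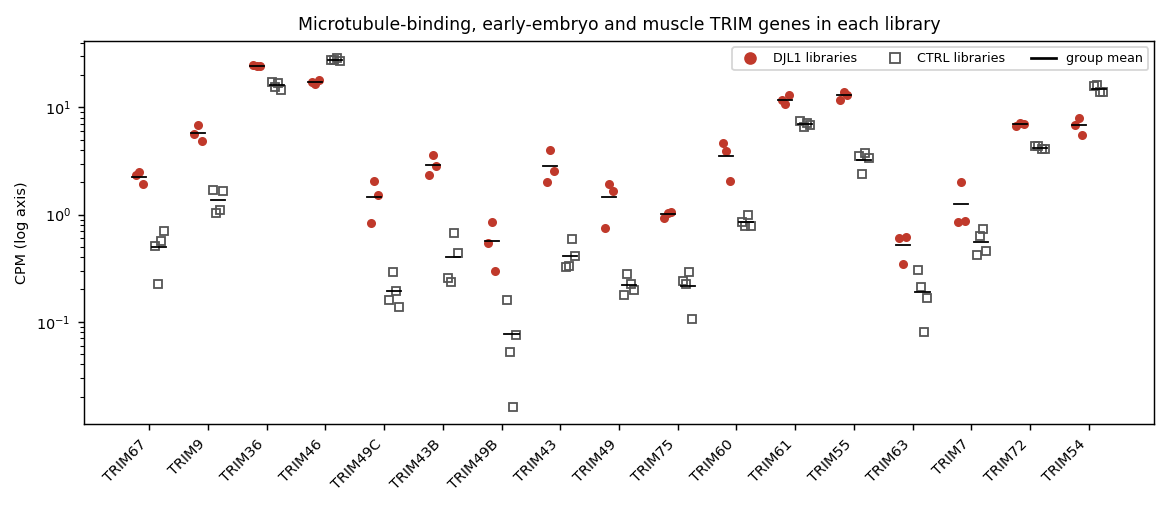
CPM on a log axis for the tested microtubule-binding, early-embryo and muscle-linked members, with DJL1 libraries as filled circles, CTRL libraries as open squares and a bar at each group mean. TRIM46 and TRIM54 are the 2 genes with DJL1 below CTRL, and in the other 15 every DJL1 library lies above every CTRL library.

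The other 7 members of this group had too few reads to be tested. TRIM64 had 2, 11 and 21 reads in DJL1, against 2, 3, 1 and 2 reads in CTRL, and its copy TRIM64B 4, 11 and 26 reads in DJL1, against 3, 5, 5 and 5 reads in CTRL. TRIM48 had 2, 2 and 6 reads in DJL1, against 0, 0, 2 and 0 reads in CTRL. TRIM51 had 4, 3 and 0 reads in DJL1 and 1 read in all CTRL libraries together, and TRIM64C had 2, 3 and 0 reads in DJL1 and 1 read in all CTRL libraries together. TRIM42 had 4, 0 and 0 reads in DJL1, against 0, 0, 0 and 2 reads in CTRL. TRIM77 and, outside the lists, TRIM51G had no read in DJL1 and at most 2 reads in a CTRL library. Of the 4 members whose promoter window holds the DUX4 letters shown above, TRIM49B was tested and higher and TRIM48, TRIM51 and TRIM51G were not tested. The TRIM43 and TRIM43B windows were not analysed here, and those of TRIM49 and TRIM49C hold no match.

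Of the 25 remaining listed members 7 were higher, 9 were lower and 9 were not called, where 27.0% of all tested genes were higher and 25.1% lower. The lower ones had log2 fold changes of -0.54 to -0.13. Beside TRIM39 they were TRIM13 (-0.54), an endoplasmic reticulum ligase, TRIM17 (-0.51), which acts in neuronal apoptosis, TRIM52 (-0.45), TRIM59 (-0.43), TRIM62 (-0.43), TRIM45 (-0.39), TRIM41 (-0.29) and TRIM37 (-0.13), a centrosome regulator mutated in mulibrey nanism. TRIM37 missed the threshold in 8 of the 16 alternatives (adjusted p = 0.054 to 0.087). The higher ones included TRIM8 (0.51), a regulator of NF-kB and STAT signalling, TRIM10 (0.79) and TRIM58 (0.44), which act in erythroid cells, TRIM16 (0.27), TRIM35 (0.17) and TRIM44 (0.16). TRIM16 missed the threshold without DJL1 replicate 1 (adjusted p = 0.062) or DJL1 replicate 3 (0.059), and it shares 1825 bases at 98.6% identity with TRIM16L, which was not called (0.09).

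TRIM40, a gene of the gut epithelium, had the highest fitted value of the family, 3.33 ± 1.13 on the log2 scale (adjusted p = 0.027). It rested on 20, 55 and 0 reads in DJL1, against 0, 8, 10 and 0 reads in CTRL, and the groups overlapped. It was not called by DESeq2 (adjusted p = 0.246), by limma-voom with a variance for each group (0.332), with the replicate block (0.213) or without DJL1 replicate 2 (log2 fold change 1.93, adjusted p = 0.221). The members not called were TRIM15 (0.79), TRIM29 (0.28), TRIM74 (0.26), TRIM47 (0.05), TRIM23 (0.03), TRIM73 (0.03), TRIM11 (-0.01), TRIM50 (-0.02) and TRIM68 (-0.18), along with TRIM80P (0.34) outside the lists. TRIM15, a neighbour of TRIM40 and TRIM10, had 2.64, 7.62 and 4.45 CPM in DJL1, against 3.75, 1.96, 2.04 and 3.56 CPM in CTRL, and passed without DJL1 replicate 1 (log2 fold change 1.08, adjusted p = 0.008) or CTRL replicate 1 (0.96, adjusted p = 0.041). TRIM50, TRIM73 and TRIM74 are copies on chromosome 7 that share stretches at 96.1% to 99.8% identity, and TRIM73 and TRIM74 summed were not called either (0.15, adjusted p = 0.281).

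Neighbouring members were paired when consecutive by start, with a gap of up to 100000 bases. Of 11 such pairs with both tested, 4 shared a call, 2 were called in opposite directions and in 5 only 1 member was called. Over all tested genes 27.0% were higher and 25.1% lower. The pairs with a shared call were TRIM61 and TRIM60, TRIM60 and TRIM75, TRIM40 and TRIM10 (all higher), and TRIM41 and TRIM52 (both lower). On chromosome 11 TRIM5 (5588635 to 5685074) spans TRIM6 (5596111 to 5612952), and their log2 fold changes were 1.24 and -0.39. TRIM22, which starts at 5689790, just past the end of TRIM5, was higher too (0.71). TRIM6 and TRIM34 start between TRIM5 and TRIM22, so TRIM5 and TRIM22 were not counted as a pair. On chromosome 17 TRIM47 and TRIM65 are 955 bases apart, and TRIM65 was lower (-0.75) while TRIM47 was not called (0.05), although 51.5% of the exon bases of TRIM47 overlap an antisense gene and the strand setting of the counting is not known. On chromosome 5 TRIM7 was higher (1.15) and its neighbours TRIM41 and TRIM52 were lower. On chromosome 1 TRIM17 was lower (-0.51) and TRIM11, 1099 bases away, was not called.

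**Figure D4:**
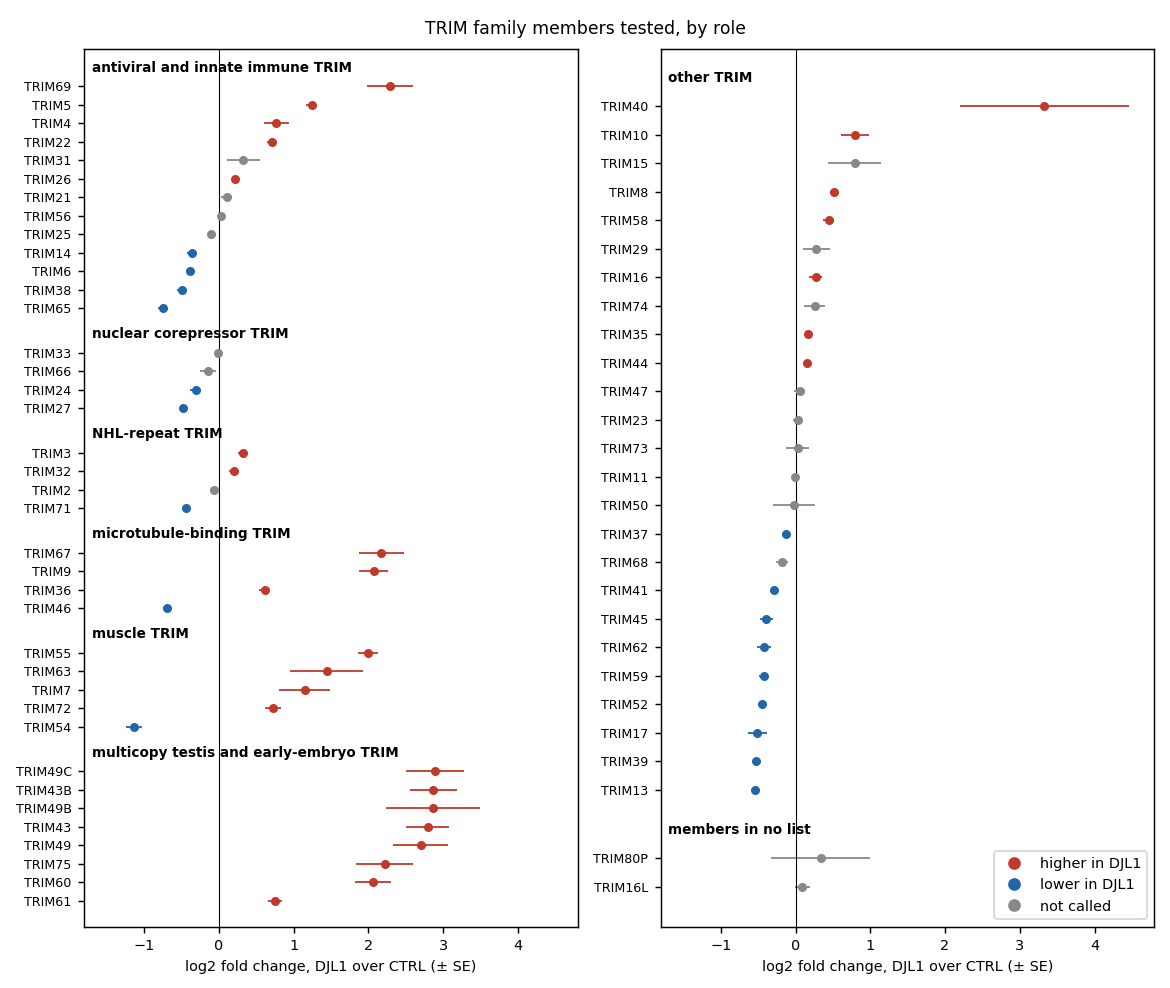
Log2 fold change, DJL1 over CTRL, with its SE for the 65 tested members, grouped by role and coloured by call. The early-embryo members lie between 0.75 and 2.89, and the antiviral members spread from -0.75 (TRIM65) to 2.29 (TRIM69).

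Listed relatives whose symbols fall outside the pattern that defined the members were mostly higher. Of 8 tested, 7 were higher and 1 was lower, against 27.0% and 25.1% of all tested genes. The 7 include the TRIM-named TRIM49D1 (log2 fold change 1.64) and TRIM49D2 (1.73), whose values were nearly equal in most libraries, so they may not be separate measurements. With both included, the median log2 fold change of the 8 was 0.77, against 0.01 over all tested genes. Neither TRIM49D gene would have passed the filter on low counts with its CTRL libraries alone. The count of higher relatives and this median are thus no evidence of a direction. MID1, a microtubule-bound ligase, had 72.7 ± 3.88 CPM in DJL1 and 49.1 ± 2.47 CPM in CTRL (SD, 0.57), and MEFV, the inflammasome protein pyrin, 2.33 ± 0.319 CPM in DJL1 and 0.668 ± 0.0590 CPM in CTRL (1.79). MID2 (0.64) and CMYA5 (0.90), a muscle protein, were also higher. PML, the scaffold of nuclear bodies and an interferon-induced gene, was higher by 0.17, and TRIML2 was the lower one (-0.12).

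The authors' deposited table of the same comparison lists 62 of the members. The authors' deposited table gave 27 of them as higher and 18 as lower at an adjusted p under 0.05, against 32.4% and 30.1% of all its 20199 rows. For 60 of the 62 its call was the one made here, and the exceptions were TRIM15, higher in the authors' deposited table, and TRIM40, not called there.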

How the data were processed

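The authors deposited raw counts per gene symbol for 7 libraries, used here unchanged, and a further deposited table on a log scale was not used. The submitters' processing notes name featureCounts (Subread 1.5.0), HISAT2 2.2.1 and Trim Galore 0.4.0 along with GRCh38 and hg38, with no roles. The kit was directional, per the labels' protocols, but how strand and multi-mapped reads were counted is not given in the sources used here. The authors' deposited comparison table gives log2 fold changes, p-values and adjusted p-values per its header, with a model and filter not given in the sources used here.

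Groups were read from the sample titles. Genes passing filterByExpr (minimum count 10, total 15) were scaled by TMM and tested with edgeR 4.0.16 in R 4.3.3 (quasi-likelihood, robust, 2-sided), and the SE was taken from the fold change and F. CPM uses the same scaling. Levels per kb divide by GENCODE 29 exon unions, and near copies are stretches of at least 200 bases at 95% identity. The test was tried on simulated data. Alternatives were DESeq2 1.42.0, limma 3.58.1 voom with a variance per group, other scalings and filters, thinning, left-out libraries, a replicate block and summed copies. The members and lists were chosen with earlier results of these data known. Values in every library are given for members called with at least 2-fold change and a group mean of 1 CPM, the 5 smallest adjusted p, the 5 highest levels per kb, and TRIM5, TRIM21, TRIM22, TRIM25, TRIM24, TRIM33, TRIM71 and TRIM43, 24 members. Of other lists the 4 genes with the smallest adjusted p are named. TRIM15, TRIM34, TRIM40, PML, TRIML2, UBE2L6 and the untested copies were added after their values were seen.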

Additional observations from a re-analysis of the deposited data

Results flagged for a closer look

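In the CTRL group of 4 libraries, 1 of the 65 tested members had a library that stood apart by Dixon's criterion at the 95% level, and chance gives about 1 in 20 groups. TRIM16 had 15.9 CPM in CTRL replicate 1, against 13.4 to 13.8 CPM in the other CTRL libraries (gap over range 0.841).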

How the results depend on the processing

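Over 16 alternatives, including 1 added after the data were seen, members called higher numbered 22 to 30 and members called lower 17 to 20, against 29 and 18, and all genes called stayed within 1.5 times of the main counts. Leaving out one library gave 27 to 30 members higher and 17 to 20 lower, and 6208 to 7156 genes higher and 5763 to 6941 lower. Of the 47 called members 41 kept their call and direction in every alternative that tested them, and TRIM7, TRIM16, TRIM32, TRIM37, TRIM40 and TRIM63 did not. No called member changed sign. Signs turned in 8 members that were not called, all but TRIM80P and TRIM50 near 0. TRIM11 had a log2 fold change of 0.0041 with library size alone, 0.0181 at 1 CPM in 3 libraries and 0.0070 thinned, and -0.0633 to 0.0050 without one library. TRIM33 had 0.0088, 0.0225 and 0.0169 in the same settings and -0.0621 to 0.0174 without one library. TRIM73 had -0.0043 with no filter and -0.0743 to 0.0913 without one library. TRIM80P had -0.0429 with limma-voom and -1.02 to 0.76 without one library. Without one library TRIM23 ranged from -0.0072 to 0.0711, TRIM47 from -0.0070 to 0.0723, TRIM50 from -0.216 to 0.162 and TRIM56 from -0.0065 to 0.0465.

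With the replicate number as a block 27 members were higher and 17 lower, and 5863 and 5614 of all genes, with TRIM73 at -0.0294 and TRIM80P at -0.112. TRIM37, TRIM40 and TRIM63 lost their call there. Same-numbered libraries did not deviate together (r of -0.038 to -0.0043 across genes), and no DJL1 library correlated best with its own number. The lower depth of DJL1 limits members under about 1 CPM, and thinning every library to the smallest left 28 higher and 18 lower.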

Other observations

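Outside the members, 43 further rows carry a TRIM symbol (pseudogene, antisense and readthrough names, without TRIM28, TRIML1, TRIML2 and the TRIM49D genes), and 11 had enough counts to be tested. Of these 7 were higher in DJL1 and 4 were not called by edgeR, where 27.0% of all tested genes were higher. Among the 7, TRIM43CP and TRIM53CP would not have passed the filter on low counts with their CTRL libraries alone. The count is thus no evidence of a direction. All 7 carry pseudogene names, among them TRIM43CP with 1.43 ± 0.187 CPM in DJL1 and 0.194 ± 0.0678 CPM in CTRL (SD, log2 fold change 2.87) and TRIM53BP with 2.63 ± 0.921 CPM in DJL1 and 0.928 ± 0.119 CPM in CTRL (1.49). TRIM60P14 shares 524 bases at 99.8% identity with TRIM61 and had 5.06 ± 0.620 CPM in DJL1 and 2.65 ± 0.304 CPM in CTRL (0.93). Reads of such copies can be split among them, and these genes were named after their values were seen.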
